A study of Rattus norvegicus with 5 samples.

Results

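Ratios of 7 CC and XC chemokine genes and of the CC chemokine receptor gene Ccr1 were examined in mononuclear leukocytes taken from the vessels of transplanted rat kidneys. The 8 genes are Ccl2, Ccl3, Ccl4, Ccl5, Ccl6, Ccl7, Xcl1 and Ccr1, out of 14871 named genes on the array. They were picked by gene symbol, with earlier results of this same comparison known. The order that ties a value to a gene name was selected on measured values too, namely the likeness of the log ratios of probes that share an accession. The ratios, calls and p-values of these genes are therefore a description, and nothing is read from how many of them were called.

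Chemokines are small secreted proteins that direct leukocytes to tissues through receptors coupled to G proteins. CC chemokines carry a pair of adjacent cysteines near the start of the mature protein, and XC chemokines lack one of the cysteine pairs found in the others. In transplanted organs, CC chemokines are known for drawing monocytes and T cells into the graft, and Xcl1 for drawing dendritic cells that carry its receptor Xcr1.

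Each of 5 dual-colour arrays set an allograft sample against an isograft sample. Both groups came from male rats, and every recipient was a LEW rat whose own kidneys had been removed and who received no immunosuppression. Allograft donors were F344 rats and isograft donors LEW rats, a pair that differs slightly at an MHC class I locus, and age and day of sampling were not used here. Animals of both groups had pentobarbital anaesthesia and heparin, recipients had ampicillin after surgery, and recipients that died early were excluded. Leukocytes were perfused out of the graft's vessels, and granulocytes and erythrocytes were depleted on Percoll. The labels call the arrays biological replicates without saying which animals they came from, so p-values measure the spread between these arrays. Cy5 marked the allograft sample on replicates 1, 3 and 5, and Cy3 marked it on replicates 2 and 4.

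All values below are log2 ratios of allograft over isograft, and a value of 1 is a doubling. The base of the logarithm is assumed, and the direction is called likely because the titles name the allograft first. The ratios of replicates 2 and 4, the dye-swapped arrays, were read as already turned to that direction. No source used here states this, and it was taken from how the arrays behaved. With these arrays turned to the opposite sign, 0 of the 33649 rows passed the test, and 3820 had an unadjusted p under 0.05, against 4466 as read. The estimates of Xcl1, Ccl4, Ccl3 and Ccl6 would then be 0.30, 0.16, 0.16 and 0.04, none of them called. Only ratios were used, so no level of any gene is known and the labelled cell type could not be checked against the presence of its markers. A ratio in a mixed population does not tell fewer cells of a type from less RNA per cell. The SD of the ratios on an array ran from 0.506 to 0.847. Of all rows tested (genes, and probes without a single gene), 446 were called at an adjusted p under 0.05 in limma, which is 1.33%. Of these, 251 were higher in allograft leukocytes (0.746%) and 195 lower (0.580%). With the arrays scaled to a common spread the split was 97 higher and 214 lower.

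Xcl1, Ccl6, Ccl4 and Ccl3 rose in allograft leukocytes by 2.67 ± 0.20, 1.77 ± 0.14, 1.44 ± 0.17 and 1.01 ± 0.17 (limma estimate ± SE, n = 5 arrays). The chemokine genes Ccl2 (0.55 ± 0.15), Ccl7 (-0.04 ± 0.22) and Ccl5 (-0.20 ± 0.15) did not pass. Ccr1 had values on 3 arrays and could not be tested. Of the 7 members tested, 4 were called higher and 0 lower, beside 0.746% and 0.580% of all rows. At an unadjusted p under 0.05 the number was 5, all above 0, beside 13.3% of all rows, a share against which every unadjusted count below is to be read. The median over the 7 was 1.01, against -0.01 over all rows tested. Called counts of the lists below are to be read against the 0.746% higher and 0.580% lower. Counts of signs are to be read against the 48.9% of all rows above 0.

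**Figure D1:**
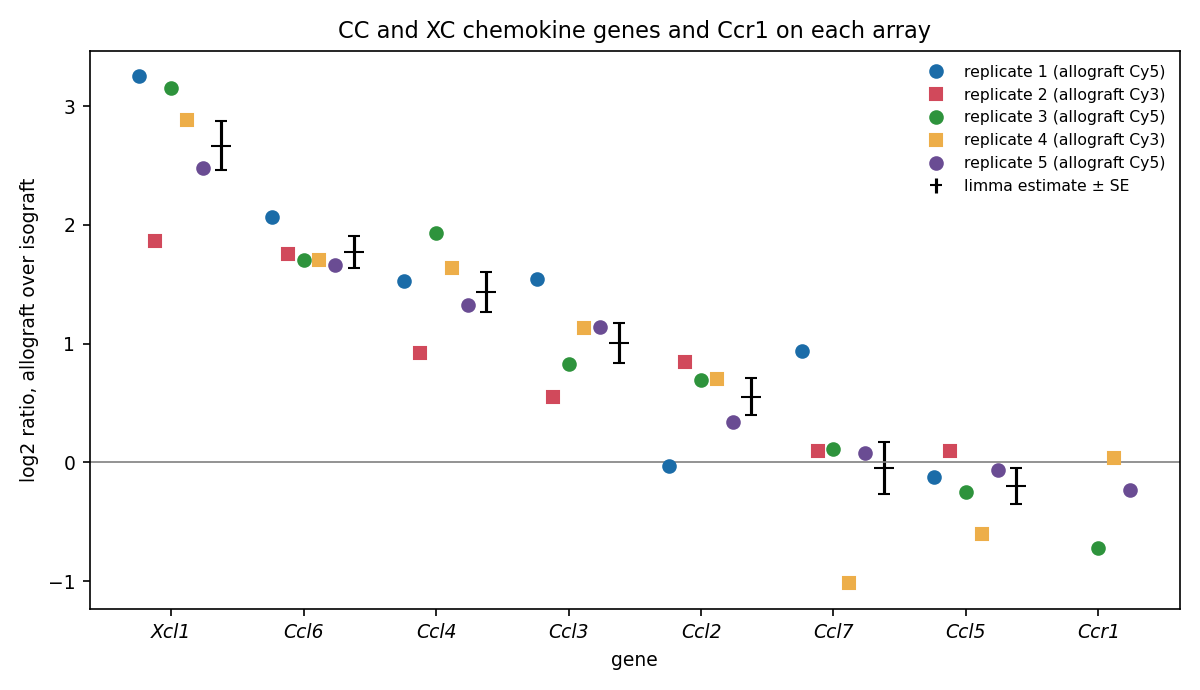
Log2 ratio of allograft over isograft (vertical axis) for each of the 8 genes (horizontal axis). Each symbol is an array, circles with the allograft in Cy5 and squares with it in Cy3, and the black bars are the limma estimate ± SE. All 5 arrays lie above 0 for Xcl1, Ccl6, Ccl4 and Ccl3, whereas those of Ccl7 and Ccl5 lie on both sides of 0.

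Promoter sequences are shown for the genes with the largest differences, Xcl1 and Ccl6, and for Ccl7, which lies with Ccl2 in another group of CC chemokine genes and did not pass. They are the 250 bases before the annotated start, 5′ to 3′ on the gene's strand, from RefSeq on the GRCr8 assembly, which held an entry for 4 of the 8 members. Xcl1 lies on chromosome 13 (chr13:79785441-79785690, minus strand), Ccl6 on chromosome 10 (chr10:68883367-68883616, minus strand) and Ccl7 on chromosome 10 (chr10:67513845-67514094, plus strand). Capitals mark the match found among the motifs searched.
Xcl1: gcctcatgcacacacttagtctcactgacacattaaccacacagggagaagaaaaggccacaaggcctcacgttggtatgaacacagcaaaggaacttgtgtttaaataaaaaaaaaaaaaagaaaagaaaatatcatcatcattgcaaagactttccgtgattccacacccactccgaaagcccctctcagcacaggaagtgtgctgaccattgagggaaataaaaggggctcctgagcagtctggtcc
Ccl6: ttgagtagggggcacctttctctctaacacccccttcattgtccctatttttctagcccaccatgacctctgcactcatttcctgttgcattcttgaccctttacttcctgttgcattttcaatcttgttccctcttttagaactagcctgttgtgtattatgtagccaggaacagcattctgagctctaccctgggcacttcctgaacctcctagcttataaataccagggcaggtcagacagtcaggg
Ccl7: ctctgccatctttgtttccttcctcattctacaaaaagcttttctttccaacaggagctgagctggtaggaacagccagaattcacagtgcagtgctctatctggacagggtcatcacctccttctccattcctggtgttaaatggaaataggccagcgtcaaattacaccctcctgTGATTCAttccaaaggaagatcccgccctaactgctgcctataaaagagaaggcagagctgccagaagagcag

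Motifs were searched on both strands: a GAS form, TTCNNNGAA, bound by STAT factors, an ISRE form bound by interferon regulatory factors, a kappaB form bound by NF-kappaB, and an AP-1 form, TGANTCA. The match in Ccl7 is to the AP-1 form and starts 73 bases before the gene's start. The Xcl1 and Ccl6 windows held 0 matches, as did that of Ccr1, which is not shown. Of 33469 promoter windows of the same length, 7.67% held the GAS form, 3.41% the ISRE form, 1.30% the kappaB form and 6.34% the AP-1 form.

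Xcl1 (Entrez gene 171371) encodes lymphotactin, an XC chemokine made by activated T cells and NK cells. Its ratios were 3.25, 1.86, 3.15, 2.88 and 2.48 on replicates 1 to 5. Every array was above 0 and replicate 2 was the lowest. The estimate of 2.67 ± 0.20 is a 6.35-fold higher value (limma adjusted p = 0.00511). On each array Xcl1 lay above at least 99.9% of the rows tested, and it ranked 9 of 14332 named genes by its estimate. It stood above each of the other 6 chemokine genes tested on 5 of 5 arrays. The mean was 2.96 on the arrays with the allograft in Cy5 and 2.37 on those with it in Cy3.

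Its receptor gene Xcr1, a marker of cross-presenting dendritic cells, had ratios of 0.38, 0.04, 0.27, 0.17 and 1.19 and did not pass (0.36 ± 0.18, adjusted p = 0.459). All 5 were above 0, and replicate 5 was the highest. Other dendritic cell genes went both ways, with Batf3 at 0.70 and Clec9a at -0.59, neither of them called. Lists of markers moved beside Xcl1 as follows. Some genes are on more than 1 of the lists used here, so the lists are not fully separate readings. Of 14 genes tested of NK and cytotoxic cells, 4 rose and 0 fell (9 at an unadjusted p under 0.05, 7 above 0 and 2 below), with a median of 0.39 and array medians from 0.15 to 0.44. The 4 were Ifng (1.76 ± 0.16), Cst7 (1.46 ± 0.16), Klrk1 (1.16 ± 0.13) and Nkg7 (0.84 ± 0.14). The 2 below 0 were the NK receptor genes Ncr1 (-0.61) and Klrd1 (-0.56), which did not pass. Of 16 T cell genes tested, 1 rose and 0 fell (6 at an unadjusted p under 0.05, 5 above 0 and 1 below). The 1 was the T cell receptor subunit Cd3e (1.10 ± 0.15), and the list's median was 0.16 (array medians -0.14 to 0.38). The part of these cells in the ratio of Xcl1 was not tested.

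Ccl6 (Entrez gene 287910) is a CC chemokine of myeloid cells, known in mouse as a ligand of Ccr1. Its ratios were 2.07, 1.76, 1.70, 1.70 and 1.66, all above 0, with replicate 1 apart from the other arrays. The spread between arrays was the smallest of the 8 genes (SD 0.165, n = 5). The estimate of 1.77 ± 0.14 is a 3.41-fold higher value (adjusted p = 0.00517), and Ccl6 ranked 30 of 14332 named genes. It lay above 98.5% to 99.9% of rows on the 5 arrays.

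Ccl4 (Entrez gene 116637) and Ccl3 (Entrez gene 25542) encode the macrophage inflammatory proteins MIP-1β and MIP-1α, which activated macrophages and cytotoxic lymphocytes secrete. Ccl4 had ratios of 1.53, 0.92, 1.93, 1.63 and 1.32, a 2.71-fold higher value in the fit (1.44 ± 0.17, adjusted p = 0.0163). Ccl3 had ratios of 1.54, 0.55, 0.83, 1.13 and 1.14, a 2.01-fold higher value (1.01 ± 0.17, adjusted p = 0.0464). Both were above 0 on 5 of 5 arrays and lowest on replicate 2. Ccl4 stood above Ccl3 on 4 of 5 arrays, by a mean of 0.43 with an SD of 0.42 (Ccl3 minus Ccl4 was -0.43), so the pair differed by about the spread of that difference. Ccl6 stood above Ccl4 on 4 of 5 arrays and above Ccl3 on 5 of 5. These are ratios, and the order says nothing of which transcript was more abundant.

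The calls of Ccl3 and Ccl4 were lost under several settings, while with an array left out their estimates stayed between 0.86 and 1.15 and between 1.26 and 1.61. Ccl3 was not called without replicate 1, 2, 3, 4 or 5 (adjusted p = 0.178, 0.0764, 0.0974, 0.239 and 0.167), with array weights (0.0543), a robust variance prior (0.0501) or the dye-following spots kept (0.0508). Ccl4 was not called without replicate 1, 3, 4 or 5 (adjusted p = 0.0858, 0.0659, 0.0927 and 0.0678) or with arrays scaled to a common spread (0.0792). Xcl1 and Ccl6 were called with any array left out, at adjusted p from 0.00862 to 0.0343 and from 0.0214 to 0.0377. In the unmoderated fit none of the 4 was called (adjusted p = 0.139 for Ccl6, 0.159 for Xcl1, 0.181 for Ccl4 and 0.220 for Ccl3).

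Ccl2 (Entrez gene 24770) encodes MCP-1, the main chemokine that draws monocytes carrying Ccr2. The average of its 3 probes was -0.03, 0.85, 0.69, 0.70 and 0.34 on the 5 arrays, above 0 on 4 of them, and did not pass (0.55 ± 0.15, 95% CI 0.19 to 0.92, adjusted p = 0.167). The 3 probes did not give the same answer. Probe 1029, annotated to the RefSeq transcript, had ratios of 0.77, 1.23, 1.17, 0.88 and 1.22, all above 0. Fitted by itself among all probes, it passed at 1.06 ± 0.15, a 2.08-fold higher value (adjusted p = 0.0265), beside 1.42% of the 41630 probes called in that fit. Its means were 1.06 on the arrays of either dye orientation.

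Probe 2763 of Ccl2 had ratios of -0.31, 1.29, 0.21, 1.22 and -0.55. It was high on the arrays with the allograft in Cy3 (mean 1.26) and lower on those with it in Cy5 (mean -0.22). Its dye effect was -0.74, against a median absolute dye effect of 0.17 over all rows, and it did not pass (0.52 ± 0.16, adjusted p = 0.211). Probe 6874 had values on 3 arrays, -0.54, 0.02 and 0.01 on replicates 1, 2 and 4, and was too incomplete to test. The low average on replicate 1 thus held 1 probe at 0.77 and 2 below 0. On replicates 3 and 5 the average of Ccl2 lacked probe 6874, so it did not hold the same probes on every array. With only probes measured on all arrays, Ccl2 stood at 0.79 and fell just short of the threshold (limma adjusted p = 0.0510). Which probe reports the Ccl2 transcript was not tested.

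**Figure D2:**
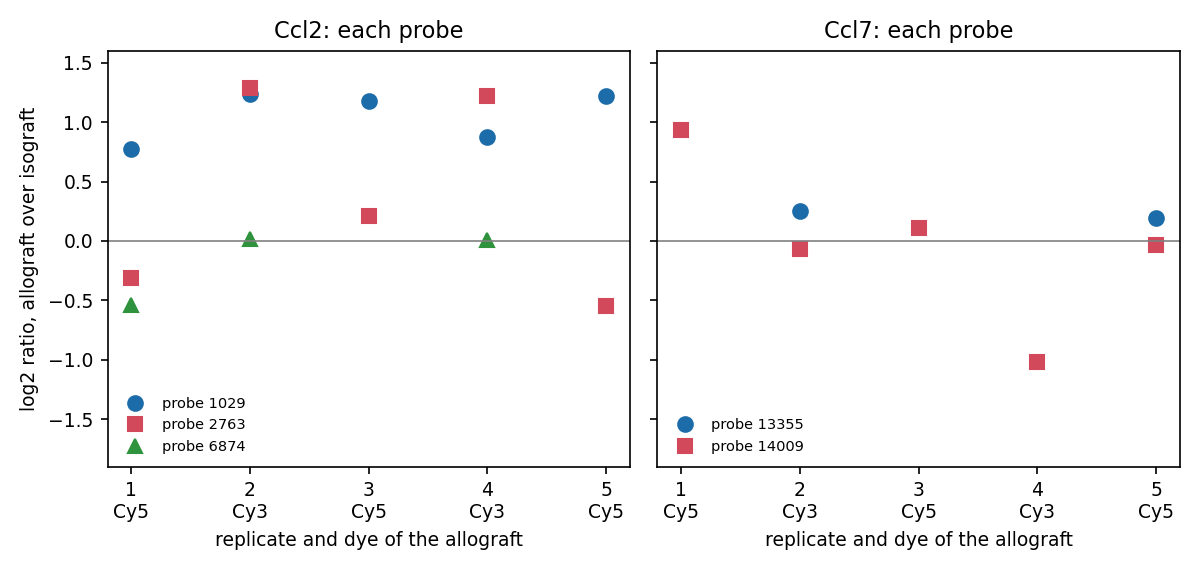
Log2 ratio of each probe of Ccl2 (left) and Ccl7 (right) on the vertical axis, by replicate and by the dye of the allograft on the horizontal axis. Probe 1029 of Ccl2 lies between 0.77 and 1.23 on all 5 arrays, probe 2763 is high on the Cy3 arrays, and a missing symbol is a missing value.

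Ccl7 (Entrez gene 287561) encodes MCP-3, which attracts monocytes through Ccr2 and other receptors. Its 2 probes share an accession. Probe 14009 had ratios of 0.94, -0.07, 0.11, -1.02 and -0.04, and probe 13355 had 0.25 and 0.20 on replicates 2 and 5 and no value on the others. The average had an SD of 0.695 over the 5 arrays, the largest of the 8 genes, with replicate 1 high and replicate 4 low. The estimate was -0.04 ± 0.22 (95% CI -0.57 to 0.48, adjusted p = 0.947).

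Ccl5 (Entrez gene 81780) encodes RANTES, a chemokine of effector T cells and NK cells that platelets also store. Its ratios were -0.12, 0.09, -0.25, -0.60 and -0.07, on both sides of 0, with replicate 4 the lowest. The estimate was -0.20 ± 0.15 (95% CI -0.56 to 0.16, adjusted p = 0.637), so a 2-fold difference in either direction lay outside the interval. Ccl3, Ccl4, Ccl6 and Xcl1 stood above Ccl5 on 5 of 5 arrays. Platelet markers were lower beside it: of 7 tested, 5 fell, all 7 were below 0, the median was -2.23 and the array medians ran from -3.24 to -1.74. The lowest were Clec1b (-3.12 ± 0.22), Pf4 (-3.12 ± 0.19) and Gp1bb (-2.98 ± 0.23). The part of platelets in the ratio of Ccl5 was not tested.

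Ccr1 (Entrez gene 57301) encodes a receptor for Ccl3, Ccl5 and Ccl7 on monocytes and other leukocytes. It had ratios of -0.72, 0.04 and -0.23 on replicates 3, 4 and 5 and no value on replicates 1 and 2. The 3 values lay on both sides of 0 (mean -0.30, SD 0.383, n = 3), and values on at least 4 arrays were needed for a test.

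Among the other receptors of the CC and XC family 0 of 8 tested genes passed in limma, with 3 at an unadjusted p under 0.05 (1 above 0 and 2 below) and a median of -0.23. Ccr2, the receptor of Ccl2 and Ccl7 on inflammatory monocytes, was the lowest, with ratios of -0.58, -0.50, -0.57, -1.52 and -0.90. All 5 arrays were below 0, and the estimate of -0.85 ± 0.18 did not pass (adjusted p = 0.0866). With quantile normalization between arrays Ccr2 passed (-0.84, adjusted p = 0.0484), the only one of the other family genes to do so under any setting tried. Ccrl2, an atypical receptor that presents chemerin and does not signal to chemokines, was the highest at 0.57 ± 0.14 (adjusted p = 0.118, above 0 on 5 of 5 arrays). Ccr7, the receptor that guides naive and memory lymphocytes to lymph nodes, stood at -0.74 ± 0.19 (adjusted p = 0.128). Ccr4 and Ccr10 had values on 3 arrays each and were not tested.

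Of 13 other CC chemokine genes tested, 0 passed in limma, with 1 at an unadjusted p under 0.05, and their median was -0.02. Ccl9, the neighbour and close relative of Ccl6, was the highest, with ratios of 0.38, 0.38, 0.22, 1.80 and 0.51. All 5 were above 0, and the estimate of 0.73 ± 0.22 did not pass (adjusted p = 0.193). Without replicate 4, which was far above the others, it was 0.38. Ccl11, the eosinophil chemokine eotaxin, was the lowest (-0.43 ± 0.22, 4 arrays, adjusted p = 0.488).

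**Figure D3:**
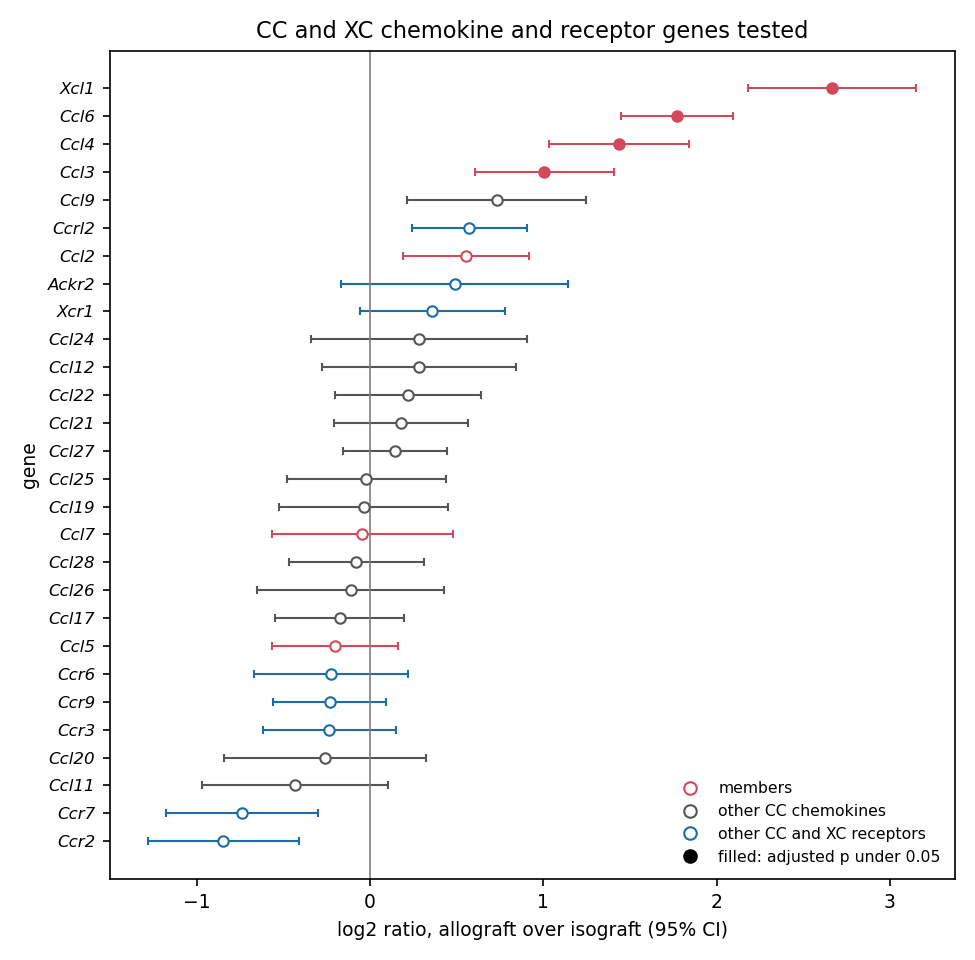
Limma estimate of the log2 ratio with its 95% confidence interval (horizontal axis) for the CC and XC genes tested (vertical axis), the members in red, other CC chemokines in grey and other receptors in blue. Filled symbols passed at an adjusted p under 0.05. Those 4 are Xcl1, Ccl6, Ccl4 and Ccl3, and Ccr2 is the lowest at -0.85.

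By place in the genome, 6 of the 7 chemokine members lie on chromosome 10 in 2 runs of neighbouring protein-coding genes of the GRCr8 annotation, and Xcl1 lies on chromosome 13. One run holds Ccl2, Ccl7, Ccl11, Ccl12 and Ccl1 in that order, the other Ccl5, Ccl9, Ccl6, Ccl3 and Ccl4. The 3 adjacent genes Ccl6, Ccl3 and Ccl4 rose, and Ccl9 (0.73) and Ccl5 (-0.20) at the other end of that run did not pass. In the run with Ccl2 none of the 4 genes tested was called by limma, and 1, Ccl2, had an unadjusted p under 0.05. Ccr1 lies on chromosome 8 between Xcr1 and Ccr3, in a run that also holds Ccr2. Whether related neighbours shared hybridisation was not tested, so the ratios of single genes within a run carry that uncertainty.

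**Figure D4:**
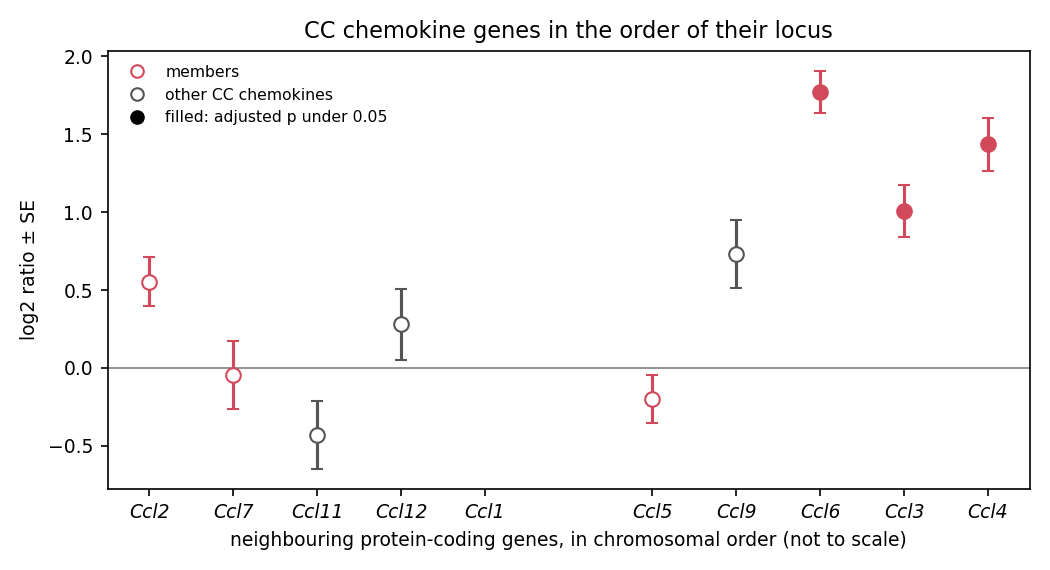
Log2 ratio ± SE (vertical axis) of the CC chemokine genes of chromosome 10 in the order of their neighbouring genes (horizontal axis, not to scale; the gap separates the runs). Members are red and filled symbols passed at an adjusted p under 0.05. The passing genes Ccl6 (1.77), Ccl3 (1.01) and Ccl4 (1.44) stand next to each other, and Ccl1 has no value.

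The CXC and CX3C families were read for comparison from lists made with earlier results known. Of 14 such chemokines, 3 rose, Cxcl9 (4.08 ± 0.17), Cxcl11 (3.11 ± 0.16) and Cxcl10 (2.44 ± 0.21), and the platelet chemokine Pf4 fell (-3.12 ± 0.19). The first 3 are ligands of Cxcr3 on activated T cells. Cxcl10 is an average of 2 probes that disagreed, the lower-numbered of which gave 0.31 by itself (adjusted p = 0.441). Their list's median was 0.08, the other 10 members lying between -0.39 (Cxcl1) and 0.31 (Cxcl13). Cxcl9 and Cxcl11 stood above Xcl1 by their estimates, and Cxcl10, as the average of its 2 probes, below it. The other probe of Cxcl10 lay above that average, so the place of Cxcl10 beside Xcl1 depends on how its probes are read. Of 7 CXC and CX3C receptor genes 0 passed in limma, 5 having an unadjusted p under 0.05 (1 above 0 and 4 below). Cxcr4 was the lowest (-0.82 ± 0.17, adjusted p = 0.0805) and Cxcr3 the highest (0.42 ± 0.14, adjusted p = 0.241). Cxcr3 too is an average of 2 probes, 1 of which gave 0.11 by itself (limma adjusted p = 0.803).

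Among 26 genes of signalling downstream of chemokine receptors (G proteins, arrestins, receptor kinases, RGS proteins and Rac regulators) 1 rose and 0 fell, with 6 at an unadjusted p under 0.05 (3 above 0 and 3 below) and a median of 0.04. Rgs1, which shortens G protein signalling in activated lymphocytes, had ratios of 0.58, 1.70, 1.20, 1.01 and 0.56, all above 0 and highest on replicate 2 (1.07 ± 0.18, adjusted p = 0.0436). Its call was lost with any array left out, with arrays scaled to a common spread and with quantile normalization (adjusted p from 0.106 to 0.161 over the first, 0.117 and 0.112 for the others). It was lost too when the dye term was dropped (0.0533) and with array weights (0.0539). The regulator Rgs2 was the lowest at -0.88 ± 0.18 (adjusted p = 0.0802).

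Markers of myeloid cells, which are a source of Ccl2, Ccl3, Ccl4 and Ccl6, were above 0 for 13 of 18 genes tested, beside 48.9% of all rows. Of these monocyte and macrophage genes 2 rose, Cd14 (1.42 ± 0.17) and Aif1 (1.02 ± 0.13), 0 fell, and the median was 0.28 with array medians from 0.17 to 0.54. An unadjusted p under 0.05 was found for 8, of which 7 were above 0 and 1, the matrix proteoglycan Vcan, was below it on all 5 arrays (-0.54). Dendritic cell genes had a median of 0.14 (array medians -0.01 to 0.55), with 0 of 9 called by limma and 2 at an unadjusted p under 0.05. Neutrophil genes, whose cells the gradient should remove, had a median of -0.24 (-0.24 to 0.08), with 0 of 14 called and 4 at an unadjusted p under 0.05 (1 above 0 and 3 below). Their part in the chemokine ratios was not tested.

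Other lists of cells that the samples could hold were read in the same way. Of 10 erythroid genes tested 8 fell, with a median of -1.86 (array medians -2.75 to -1.28). B cell genes had a median of -0.55 (-1.46 to -0.15), with 0 of 7 called by limma and 4 at an unadjusted p under 0.05. Mast cell and basophil genes had a median of -0.20, with 0 of 9 called and 1 at an unadjusted p under 0.05. Endothelial genes had a median of -0.04 (0 of 11 called, 2 at an unadjusted p under 0.05, 1 above 0 and 1 below) and kidney genes one of -0.17 (0 of 11 called, 0 at an unadjusted p under 0.05).

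The genes with the most similar pattern over the 5 arrays were named by the root mean square difference between their ratios and those of a member, over 13330 other named genes with values on all arrays. For Xcl1 they were Ubd (0.277), the complement gene C2 (0.285) and Acod1 (0.374), whose ratios lay above 2 on every array, while Xcl1 was at 1.86 on replicate 2. For Ccl4 they were the protease inhibitor Slpi (0.150), the peptide transporter Tap1 (0.178) and the immunoproteasome subunit Psmb9 (0.224). For Ccl5, the lowest of the tested members, they were Nufip2 (0.0803), Dyrk2 (0.0812) and Glud1 (0.0902), none of which was called (adjusted p from 0.532 to 0.604). A gene near 0 has many others within a small distance, so the distances of Ccl5 and Xcl1 are not compared.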

How the data were processed

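The authors deposited a table of log ratios, used here as log2 ratios, with 44290 spots and 5 arrays. Normalization, log base and scanner were not given in the sources used here. Deposited values ran from -5.15 to 5.25, with array medians near 0. Rows were put in probe order with a layout of 103 rows by 430 columns. In that order probes of 1 accession correlated at 0.500 over 5797 pairs (0.325, 0.322, 0.609, 0.179 and 0.241 on replicates 1 to 5 taken singly), against 0.00171 with row numbers as given and at most 0.0170 for the other 7 corner and parity choices. The platform annotation gave 1 gene for 23535 probes, of which 23488 matched a RefSeq gene number. Probes of a gene were averaged. The 407 spots with a mean dye-following ratio above 3, all unnamed, were left out.

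Ratios with values on at least 4 of 5 arrays and in both dye orientations (33649 rows, 14332 named genes) entered a linear model with graft and dye effects (limma 3.58.1, lmFit and eBayes, under R 4.3.3), two-sided, Benjamini-Hochberg over all rows, threshold 0.05. The fit was tried on simulated rows with independent normal noise and no dye effect. That trial is simpler than these arrays and does not show how the fit behaves on them. Intensities were not used, and precision is limited by how many arrays there are.

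The members, gene lists and tests were chosen with earlier results of these data known. Named by rule were all members, each other chemokine list's called, highest and lowest genes, Ccr2 and Xcr1, at most 3 genes per marker list by absolute ratio, and the 3 most alike genes for Xcl1, Ccl4 and Ccl5. Ccr7, Cxcl1, Cxcl13, Nkg7, Ncr1, Klrd1 and Vcan were named after their values were seen. Alternatives changed scaling, centring, dye term, probe summary, filters, variance model and arrays.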

Additional observations from a re-analysis of the deposited data

Results flagged for a closer look

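Among 20 chemokine and signalling genes whose arrays were compared, 3 had an array far from the others (Dixon's ratio above its 95% critical value). Several of the 20 were taken as the called, highest or lowest gene of a list on these same arrays. No chance rate is therefore set beside the 3, which are a description. Ccl6 was at 2.07 on replicate 1, with its nearest array at 1.76. Ccl9 was at 1.80 on replicate 4, with its nearest array at 0.51. Cxcl10 was at 1.39 on replicate 2, with its nearest array at 2.62.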

How the results depend on the processing

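Of 119 tested values of the members under other settings, 88 kept their direction and their side of the threshold, 21 lost the call, 1 gained it (Ccl2 read from probe 1029) and 9 changed sign, all of genes not called in either fit. Ccl7 stood at 0.0021 with arrays scaled, 0.0081 with quantile normalization and 0.039 with the dye term dropped, and it ranged from -0.32 to 0.23 with an array left out. With the signs of replicates 2 and 4 turned, 0 rows and 0 members passed in limma (3820 rows and 0 members at an unadjusted p under 0.05). Opposite to their signs in the report, Pf4 then stood at 0.19, Rgs1 at -0.29, Ccl2 at -0.22, Ccl5 at 0.055, Ccl7 at 0.42, Ccl9 at -0.36 and Ccr2 at 0.16. The unmoderated fit called 0 rows and 0 members (4477 rows and 5 members at an unadjusted p under 0.05). With quantile normalization 1 of the other CC and XC genes passed, Ccr2. Leaving out an array left 66 to 164 rows and 2 or 3 members called, fewer arrays and only rows complete on the remaining arrays entering those fits. Without replicate 1, 3, 4 or 5 the 2 were Xcl1 and Ccl6, and without replicate 2 Ccl4 was called as well. Cxcl10 read from 1 of its 2 probes was 0.31 (adjusted p = 0.441). The cause of these changes was not tested. Fits to the other chemokine and signalling genes were added after seeing the data. Each ratio is a difference within an array, so the fit is already a paired one. Signal over background is unknown, and 5 arrays limit what can be called.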
